A study of Mus musculus with 6 samples.

Results

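The genes examined here make, remove or exchange 2-hydroxyglutarate, and they are D2hgdh, Idh1, Idh2 and Adhfe1, 4 of 21911 protein-coding mouse genes. A gene was counted as marked when an H3K4me3 peak lay within 1 kb of any of its annotated transcript starts, and 29 of the 227418 peaks in the 6 lists met that rule for these genes. D2hgdh was selected on its promoter peaks in the vehicle lists, between which it differed, so its values in those lists are a description and were not tested. The peaks came from ChIP-Seq of H3K4me3, the trimethylated form of lysine 4 of histone H3, a mark found at the starts of active genes.

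Cells were conditionally immortalized striatal progenitors of strain C57BL/6, held for 24 hours without serum, and each condition had 1 peak list. Q7SST came from the wild type line (STHdhQ7) with vehicle (DMSO), and Q111SST came from the mutant line (STHdhQ111), a homozygous knock-in of polyglutamine-expanded huntingtin, with vehicle. The other 4 lists came from STHdhQ111 cells given cyproheptadine, loxapine, diacylglycerol kinase inhibitor II (DKI) or meclizine, each at 10 uM. Each genotype was 1 cell line, so that genotype and any other difference between the lines cannot be told apart. Whether each list pooled any replicates of the H3K4me3 ChIP-Seq is not given in the sources used here. Differences between lists were not tested, since no list had a replicate. A promoter without a peak had no call in that list, and signal under the threshold of the peak caller is not shown by these data.

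The lists held from 30758 peaks with DKI to 45564 with loxapine, and read depths are unknown. Each peak had a whole-number score, which is given here with its strength percentile, the percentile of that score among all peaks of the same list. Whether scores share a scale between lists is not stated, so lists were compared by percentile. Of 11 genes of the neural progenitor and striatal lineage, between 5 with cyproheptadine and 9 in Q7SST were marked. Vim, Dlx1 and Dlx2 were among those marked in all 6 lists, Drd1 was marked in none, and Gsx2 and Bcl11b were among those marked in Q7SST alone. Sox2, a progenitor gene, was in the other direction, with no peak in Q7SST and scores from 28 for cyproheptadine to 97 for meclizine in the 5 mutant lists, as at D2hgdh. Nes, another progenitor gene, had a score of 150 in Q7SST (percentile 90.7) and 35 in Q111SST (41.9), with 73 for loxapine (68.5), 39 for meclizine (37.0), 30 for DKI (32.2) and no peak for cyproheptadine. The 8 genes read as markers of other tissues were marked in no list.

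2-Hydroxyglutarate is a small acid with D and L mirror forms, made in side reactions of central metabolism from 2-oxoglutarate, an intermediate of the tricarboxylic acid cycle. D2hgdh, a flavin enzyme of mitochondria, oxidises the D form back to 2-oxoglutarate and hands the electrons to the electron transfer flavoprotein. Adhfe1, the mitochondrial hydroxyacid-oxoacid transhydrogenase, forms the D form while it oxidises 4-hydroxybutyrate. Idh1 in the cytosol and peroxisomes, and Idh2 in mitochondria, turn isocitrate into 2-oxoglutarate with NADP, and mutant forms of either enzyme known from tumours make the D form in large amounts. The D form is known to compete with 2-oxoglutarate at enzymes that demethylate histones and DNA.

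Stretches of the promoters are shown because the peaks described below lie over them. RefSeq promoters (GRCm38.p6) were found for 3 of the 4 genes, with 2 promoters for Idh1, and for Adhfe1 none was matched. Each stretch lies before the RefSeq start, touches no annotated exon and is given on the strand of the gene. Capitals mark matches, on either strand, to the GC box GGGCGG, the CCAAT box CCAAT, the ETS core CGGAAG, the E-box CACGTG, the TATA letters TATAAA or the NRF1 motif. The stretches lie at chr1:93825052-93825239 (plus strand) for D2hgdh, chr1:65186501-65186682 (minus strand) for the upstream and chr1:65179182-65179392 (minus strand) for the downstream Idh1 promoter, and chr7:80115393-80115600 (minus strand) for Idh2.
D2hgdh: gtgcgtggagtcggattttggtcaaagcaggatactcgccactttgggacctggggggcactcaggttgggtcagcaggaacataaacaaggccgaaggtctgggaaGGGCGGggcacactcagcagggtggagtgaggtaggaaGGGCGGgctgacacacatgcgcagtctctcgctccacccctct
Idh1 upstream: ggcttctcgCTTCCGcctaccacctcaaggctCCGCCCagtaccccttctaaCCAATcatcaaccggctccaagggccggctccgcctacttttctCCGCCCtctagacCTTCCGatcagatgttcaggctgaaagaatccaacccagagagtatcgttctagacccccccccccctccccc
Idh1 downstream: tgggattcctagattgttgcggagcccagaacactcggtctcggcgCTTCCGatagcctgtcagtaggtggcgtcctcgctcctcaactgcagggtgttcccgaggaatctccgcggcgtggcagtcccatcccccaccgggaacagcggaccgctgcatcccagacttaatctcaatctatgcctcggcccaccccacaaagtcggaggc
Idh2: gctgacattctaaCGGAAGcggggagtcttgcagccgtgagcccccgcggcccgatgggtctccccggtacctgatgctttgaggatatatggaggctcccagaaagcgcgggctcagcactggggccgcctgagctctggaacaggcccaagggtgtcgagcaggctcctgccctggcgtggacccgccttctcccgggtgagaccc

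The D2hgdh stretch held 2 GC boxes and no other match. The upstream Idh1 stretch, which is the whole interval between the outermost annotated starts of Idh1 and Pikfyve, held 2 GC boxes, 1 CCAAT box and 2 ETS cores. The downstream Idh1 stretch and the Idh2 stretch held 1 ETS core each. In the full RefSeq windows, from 250 bases before to 50 after the start, all 4 promoters held a GC box, against 35.7% of 32851 promoters of the same length. An ETS core was in both Idh1 windows and the Idh2 window, against 16.9% of all promoters, and a CCAAT box was in the upstream Idh1 and Idh2 windows, against 37.4%. Matches to the E-box (7.15% of promoters), the TATA letters (13.6%) and the NRF1 motif (0.971%) were in none of the 4 windows. The D2hgdh window held 13 CG dinucleotides, the 2 Idh1 windows 23 each and the Idh2 window 20, against a median of 7 over all promoters. D2hgdh thus had the fewest CG dinucleotides of the 4 windows. A match is a description of these letters and not of a bound site.

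D2hgdh had no promoter peak in Q7SST and a strong one in all 5 lists from mutant cells. The score was 232 in Q111SST (percentile 99.4), and under the compounds it was 232 for meclizine (98.3), 177 for loxapine (96.3), 166 for DKI (97.3) and 148 for cyproheptadine (97.0). The 5 values lay within 3.10 percentile points when ranked among all peaks of a list. Ranked among marked coding promoters alone they were further apart, at 98.5 in Q111SST, 96.1 for meclizine, 94.2 for DKI, 92.8 for cyproheptadine and 88.4 for loxapine. In Q111SST the peak was above 98.5% of all marked coding promoters in strength, yet at 1375 bp it was wider than only 25.5% of them.

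In Q111SST the D2hgdh peak lay on chromosome 1 (93824751 to 93826125 on GRCm38, as are all coordinates here). It covered 3 of the 8 annotated starts, untranslated and coding exon sequence, and the start of an intron. From the start of D2hgdh-201, at 93825240, peaks of the 5 mutant lists reached from 295 to 489 bp upstream and from 870 to 895 bp into the gene. The edge inside the gene thus varied by 25 bp among lists, and the upstream edge by 194 bp. Cyproheptadine had the shortest peak, of 1166 bp, which began 36 bp past the outermost start and covered 2 starts. The next 3 starts lay from 148 to 452 bp beyond the mutant peaks and so within the 1 kb window. The last 2, at 93829796 and 93829797, lay outside it, from 3661 to 3687 bp beyond those peaks.

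In Q7SST the nearest peak to any of the 3 covered starts lay in an intron, 10768 bp from the D2hgdh-202 start (chromosome 1, 93836042 to 93836238). It was 197 bp wide with a score of 22, at percentile 13.2. Loxapine had a peak over the same place (93835873 to 93836275, score 25, percentile 25.9), and the other 4 lists had none there.

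**Figure D1:**
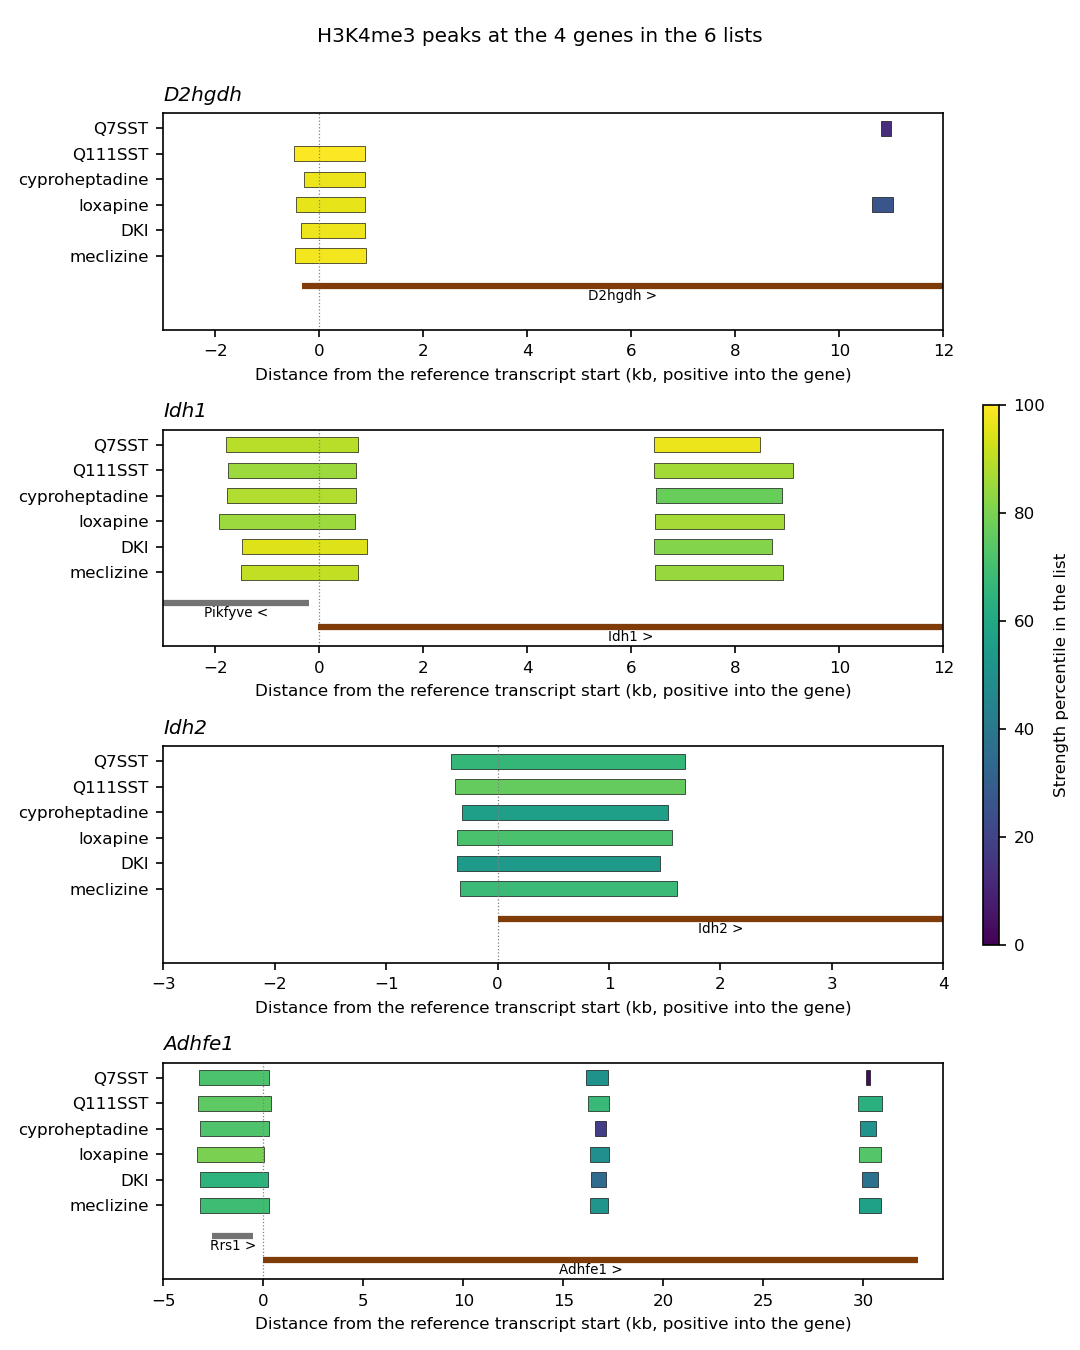
Peaks of the 6 lists at D2hgdh, Idh1, Idh2 and Adhfe1, as bars against the distance in kb from a reference transcript start (positive into the gene), coloured by strength percentile in the list, with coding genes as lines below (> same strand as the panel's gene, < opposite). The D2hgdh start has a bar in the 5 mutant lists and none in Q7SST, while the Idh1, Idh2 and Adhfe1 starts have one in all 6.

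Over all coding genes, 455 (2.08%) were marked in Q111SST and not in Q7SST, which is 3.56% of the 12790 marked in Q111SST, and 788 (3.60%) were marked in Q7SST and not in Q111SST. The 455 promoters had a median score of 31 in Q111SST, and D2hgdh ranked 1 among them by score, with Scn3a next at 186. Where the peak had to lie on the start itself, D2hgdh ranked 5 of 596, and Sirt1 led at 250. Among the 7223 coding promoters at or above percentile 80 in Q111SST, 38 (0.526%) had no peak in Q7SST, and 0 to 5 had none in a compound list. These counts share the Q111SST list.

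**Figure D2:**
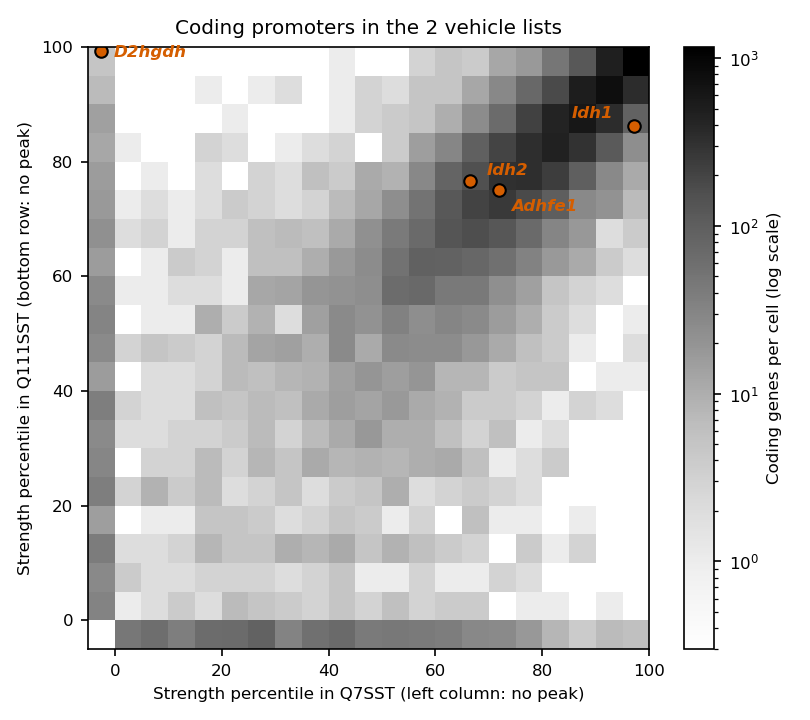
Strength percentile of each coding promoter in Q7SST (x axis) and Q111SST (y axis), as a grid of 5-point cells shaded by the number of genes on a log scale, with unmarked promoters in the left column or bottom row and those unmarked in both left out. D2hgdh sits in the top left corner, at percentile 99.4 in Q111SST without a Q7SST peak, and Idh1, Idh2 and Adhfe1 lie in the body of the distribution.

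The pattern of D2hgdh, marked in all 5 mutant lists and not in Q7SST, was shared by 205 coding genes (0.936%). The genes with the most similar strengths, by mean absolute difference of percentile over the 6 lists with no peak counted as 0, were Scn3a (3.16 points), Pctp (4.06), Tep1 (5.16), Pon3 (5.37) and Zfp182 (5.69). Scn3a encodes a voltage-gated sodium channel, Pctp a phosphatidylcholine transfer protein, Tep1 a telomerase-associated protein, Pon3 a paraoxonase and Zfp182 a zinc finger protein. They lie on chromosomes 2, 11, 14, 6 and X. Among the 5 mutant lists the percentile of Scn3a ran from 89.2 with cyproheptadine to 97.2 in Q111SST. That of Pctp was lowest in Q111SST, at 91.1, and highest with DKI. By score in Q111SST, Pctp had 144, Tep1 153, Pon3 168 and Zfp182 173. That D2hgdh exceeded the 5 genes there follows from its rank of 1 among promoters unmarked in Q7SST, given above.

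Coding neighbours of D2hgdh did not share its pattern. Of 6 coding genes with a start within 100 kb, Ing5, Dtymk, Atg4b and Thap4 were marked in all 6 lists, and Gal3st2 and Gal3st2b in none. Ing5, which encodes a subunit of histone acetyltransferase complexes, is the nearest upstream gene, with its closest start 20564 bp away. Its score was 80 in Q7SST (percentile 67.7) and 70 in Q111SST (67.1). Under the compounds it was 69 for loxapine (66.2), 71 for meclizine (60.4), 48 for cyproheptadine (56.9) and 34 for DKI (37.4). Dtymk, a thymidylate kinase gene, had 83 in Q7SST (69.0) and 70 in Q111SST (67.1). Under the compounds it had 120 for meclizine (79.8), 80 for DKI (73.7), 67 for cyproheptadine (70.3) and 69 for loxapine (66.2). At both of these neighbours Q7SST was within 2 percentile points of Q111SST. In Q111SST and loxapine 1 peak covered the Dtymk and Ing5 starts, and in the other 4 lists they had a peak each. Atg4b, the gene of an autophagy protease, and Thap4 had the same strongest peak, with a score of 94 in Q7SST (73.4) and 87 in Q111SST (74.3).

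Within 100 kb of the D2hgdh start Q7SST had 4 peaks covering 5.29 kb, and Q111SST had 6 covering 8.27 kb. Counts in the compound lists ran from 5 with cyproheptadine, DKI and meclizine to 8 with loxapine. On the downstream side Q111SST, loxapine and meclizine had a weak peak that began between 32082 and 32226 bp from the start, with scores of 20, 20 and 23, and Q7SST, cyproheptadine and DKI had none there.

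**Figure D3:**
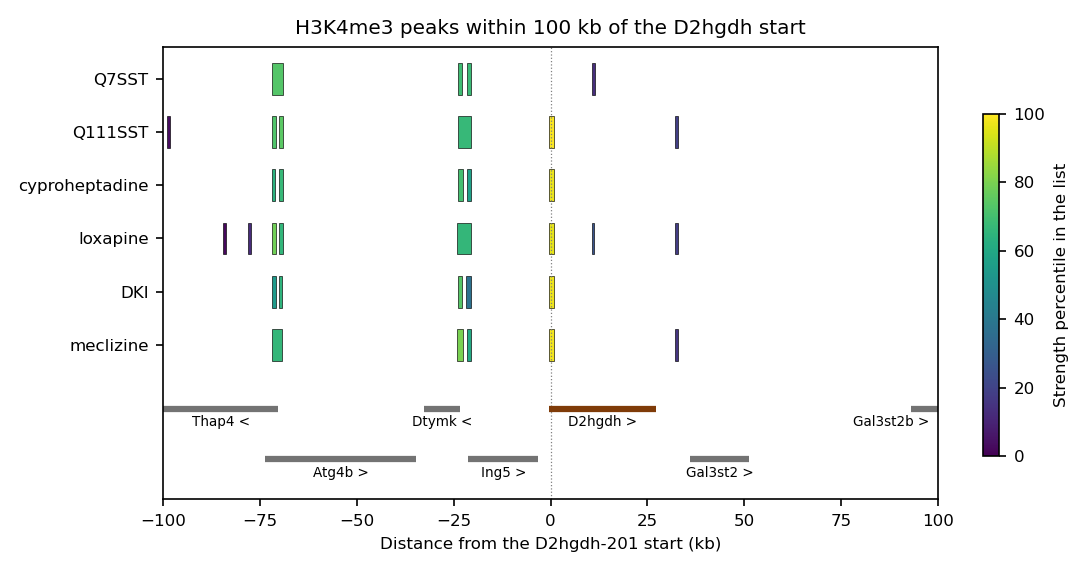
Peaks of the 6 lists within 100 kb of the D2hgdh-201 start, as bars against the distance in kb and coloured by strength percentile, with coding genes as lines below (> same strand as D2hgdh, < opposite). Peaks at the Thap4 and Atg4b starts and at the Dtymk and Ing5 starts appear in all 6 lists, whereas the bar at 0 is missing in Q7SST alone.

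Idh1 was marked in all 6 lists, at a pair of separate promoters. The upstream peak, in Q111SST on chromosome 1 from 65185766 to 65188227, covered all 4 distinct Idh1 starts there and those of Pikfyve, the gene of a phosphoinositide kinase that is transcribed away from it. The nearest starts of the 2 genes are 183 bp apart, so this peak cannot be assigned to either gene. The downstream peak (65177365 to 65180035 in Q111SST) covered the start of Idh1-201 and untranslated exons of other transcripts. Between the peaks lay from 5512 to 5767 bp without a peak.

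The upstream Idh1 peak had a score of 143 in Q7SST (percentile 89.1) and 119 in Q111SST (84.9), and under the compounds 163 for meclizine (90.7), 143 for DKI (94.7), 116 for loxapine (84.9) and 106 for cyproheptadine (88.2). The downstream peak had 195 in Q7SST (97.2) and 124 in Q111SST (86.2), and 137 for meclizine (84.7), 122 for loxapine (86.5), 96 for DKI (81.3) and 79 for cyproheptadine (77.1). The downstream peak was the stronger in Q7SST, Q111SST and loxapine, and the upstream peak was the stronger with cyproheptadine, DKI and meclizine.

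The ratio of the upstream to the downstream score, taken within a list, was 0.733 in Q7SST, 0.960 in Q111SST and 0.951 with loxapine. It was 1.34 with cyproheptadine, 1.49 with DKI and 1.19 with meclizine. Among coding genes with 2 promoter peaks in both lists, the stronger peak differed from that of Q111SST for 15.7% of 1130 genes with cyproheptadine, 16.7% of 1136 with DKI and 10.5% of 1258 with meclizine, and for 13.3% of 1336 with loxapine and 17.6% of 1120 in Q7SST. That comparison was chosen after the Idh1 values were seen. An exchange of the stronger peak, as at Idh1 with cyproheptadine, DKI and meclizine, was thus no rare event among such genes, and the 2 scores in Q111SST were close.

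The downstream Idh1 peak began between 6436 and 6481 bp from the Idh1-203 start in all 6 lists, and its other edge lay between 8476 and 9114 bp from it. It was 2038 bp wide in Q7SST and 2671 bp in Q111SST, and from 2264 bp for DKI to 2479 bp for loxapine under the compounds. The Q7SST peak was thus the narrowest and also had the highest score of the 6. Q7SST had a further peak in an Idh1 intron (65171633 to 65172036, score 30) that no other list had. Of 6 coding neighbours of Idh1, only Pikfyve was marked in all 6 lists. Pth2r, a parathyroid hormone receptor gene, was marked in Q111SST and with cyproheptadine, loxapine and DKI, with scores from 11 to 31, and the other 4 were not marked.

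Idh2 had 1 promoter peak in each list, on chromosome 7 (80113709 to 80115778 in Q111SST). It covered 3 of the 7 annotated starts, the first exon with untranslated and coding sequence, and part of the first intron. The score was 77 in Q7SST (percentile 66.4) and 93 in Q111SST (76.6), and under the compounds 87 for meclizine (67.9), 79 for loxapine (71.3), 51 for DKI (54.3) and 47 for cyproheptadine (56.0). Q111SST had the highest value, and DKI and cyproheptadine the lowest, with differences from it of -22.3 and -20.6 percentile points. Peak width ran from 1822 bp with DKI to 2101 bp in Q7SST. Both coding neighbours, Zfp710 and Sema4b, were marked in all 6 lists.

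The low Idh2 values came from the lists with the fewest peaks, 33721 with cyproheptadine and 30758 with DKI. Over the 12061 coding genes marked in both lists, the median difference from Q111SST was -3.74 points with cyproheptadine, and over 12158 genes it was -6.57 points with DKI. With each list held to its 30758 strongest peaks, the Idh2 difference was -14.9 points for DKI and -17.5 points for cyproheptadine. The range of Idh2 over the 6 lists, 22.3 points, was larger than that of 74.4% of the 11713 coding genes marked in all 6, against 35.1% for Idh1 and 53.3% for Adhfe1. The Idh1 range took the strongest peak of each list, which was downstream in some lists and upstream, shared with Pikfyve, in others. The downstream peak alone ran from percentile 77.1 with cyproheptadine to 97.2 in Q7SST, and the upstream one from 84.9 with loxapine to 94.7 with DKI.

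The start of Adhfe1 was held by the edge of a wide peak that also covered all of Rrs1, a ribosome assembly gene on the same strand, whose start is 2540 bp away. In Q111SST the peak ran on chromosome 1 from 9544679 to 9548326, and it began from 3164 to 3300 bp before the Adhfe1-203 start in the 6 lists. It reached from 13 bp past that start with loxapine to 378 bp past it in Q111SST. With loxapine it covered 1 of the 5 annotated starts, and in the other 5 lists all 5. At 3648 bp in Q111SST it was wider than 98.6% of marked coding promoters. The peak cannot be divided between Adhfe1 and Rrs1. Vxn, the other coding neighbour, was marked in no list.

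The Adhfe1 score was 90 in Q7SST (percentile 71.9) and 89 in Q111SST (75.1), and under the compounds 101 for loxapine (80.1), 90 for meclizine (69.1), 70 for cyproheptadine (72.1) and 65 for DKI (64.8). Loxapine, where the peak stopped nearest to the start, had the highest score, and DKI the lowest.

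Adhfe1 had 2 further peaks inside the gene in all 6 lists. The first lay in an intron, 16248 bp from the start (9564196 to 9565254 in Q111SST), under the antisense transcript 2610203C22Rik. Its score was 51 in Q7SST (percentile 50.8) and 71 in Q111SST (67.6), and 57 for meclizine (52.2), 45 for loxapine (49.5), 32 for DKI (34.8) and 18 for cyproheptadine (18.3). The other lay near the 3′ end (9577706 to 9578860 in Q111SST), where in the 5 mutant lists it overlapped the last exon of Adhfe1-203. There the score was 16 in Q7SST (2.76) and 63 in Q111SST (63.6), and 83 for loxapine (73.1), 65 for meclizine (57.3), 42 for cyproheptadine (51.5) and 34 for DKI (37.4). Q7SST was thus the lowest of the 6 lists at this place, where its peak was 197 bp wide and those of the mutant lists were from 812 to 1155 bp wide. Idh2 had no peak inside the gene away from its starts.

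**Figure D4:**
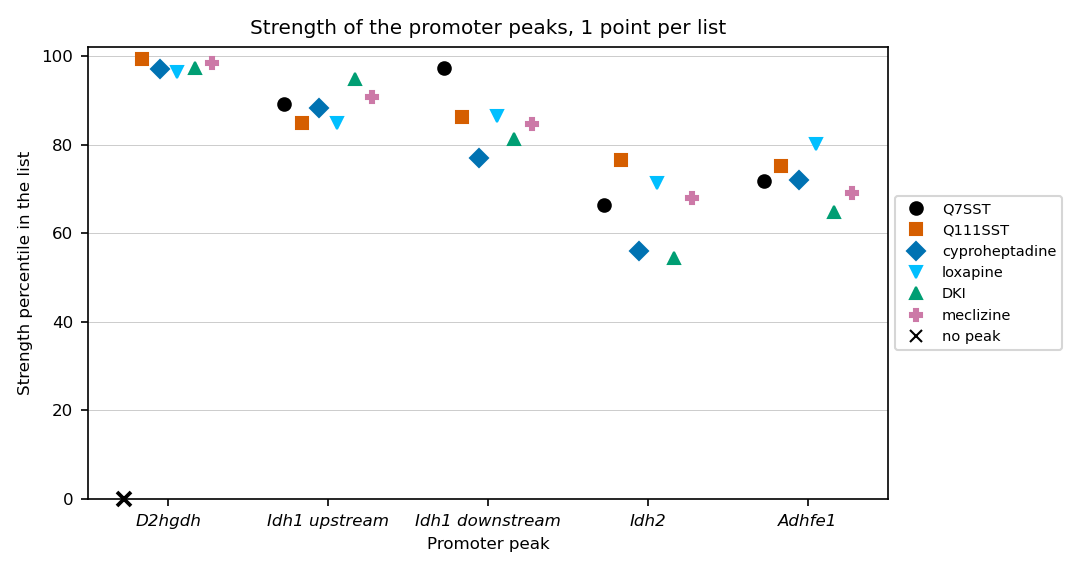
Strength percentile (y axis, 0 to 100, within a list) of the promoter peaks of D2hgdh, Idh1 (upstream and downstream), Idh2 and Adhfe1, with 1 point per list, no error bars, and a cross at 0 where a list has no peak. D2hgdh lies above percentile 96 in the 5 mutant lists, and Idh2 is lowest with cyproheptadine and DKI.

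All 4 genes were marked in Q111SST and in each compound list, and 3 of 4 in Q7SST. Over all coding genes the share marked was 58.4% in Q111SST, 59.9% in Q7SST, 58.6% for meclizine, 58.1% for loxapine, 55.8% for DKI and 55.4% for cyproheptadine. None of the 4 genes was gained or lost between Q111SST and a compound list. The share of coding genes marked in Q111SST and not with the compound was 3.33% for cyproheptadine, 2.88% for DKI, 1.24% for loxapine and 0.799% for meclizine. The share marked with the compound and not in Q111SST was 0.306% for cyproheptadine, 0.269% for DKI, 1.01% for loxapine and 1.02% for meclizine.

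Set against Q111SST, the strongest peaks of the 4 genes mostly stayed within 10 percentile points. In Q7SST, Idh1 was 11.0 points higher and Idh2 differed by -10.2 points, while of all coding genes marked in both lists 8.85% were more than 10 points higher and 13.0% more than 10 points lower. For cyproheptadine 1 of the 4 genes, Idh2, was more than 10 points lower, against 25.9% of all genes. For DKI 2 of 4, Idh2 and Adhfe1, were more than 10 points lower, against 38.8%. These shares of the members were near the background. The Adhfe1 difference for DKI, -10.3 points, was -2.44 with lists of equal size and -2.63 when ranked among peaks near starts alone, so that it no longer passed 10 points. For loxapine and meclizine 0 of 4 were more than 10 points lower, against 9.41% and 10.0%, although Idh2 for loxapine went from -5.26 to -11.7 points with lists of equal size. None of the 4 was more than 10 points higher under a compound, against 7.10% of all genes for loxapine, 4.18% for meclizine, 3.55% for DKI and 3.48% for cyproheptadine. D2hgdh, at percentile 99.4 in Q111SST, could not have risen by that much. Idh1 passed 10 points higher in other settings, for DKI at 12.8 points with lists of equal size and 24.8 among peaks near starts, against 8.52 as given here, and for meclizine at 13.5 among peaks near starts, against 4.48. Those values set the upstream peak, shared with Pikfyve, against the downstream peak of Q111SST, since the strongest peak was not the same one. Peak by peak, the downstream one was at percentile 81.3 for DKI and 84.7 for meclizine, below the 86.2 of Q111SST, and the upstream one was at 94.7 and 90.7, above the 84.9 of Q111SST.

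By width, 0 of 4 strongest peaks for each compound, and 0 of 3 in Q7SST, were more than 1.5 times wider or narrower than in Q111SST, counts near the background. For Idh1 with cyproheptadine, DKI and meclizine this set the upstream peak against the downstream one of Q111SST. The share of all coding genes with a peak narrowed by that much was 6.89% in Q7SST, 4.65% for meclizine, 8.54% for loxapine, 16.0% for cyproheptadine and 18.8% for DKI. The share widened was 5.82% in Q7SST, 3.78% for meclizine, 2.51% for loxapine, 1.32% for DKI and 0.962% for cyproheptadine.

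Related genes of the pathway were read from 3 lists of 37 genes in all, and 35 of them were marked in all 6 lists, against 53.5% of all coding genes. The first list held 9 genes of other routes to 2-hydroxyglutarate and its oxidation, among them Phgdh, Ldha, Mdh1 and Mdh2, whose enzymes can form it, and Etfa, Etfb and Etfdh, which take up the electrons from D2hgdh. All 9 were marked in all 6 lists, with a median percentile from 75.3 with DKI to 84.9 in Q111SST. With DKI 7 of the 9 were more than 10 points below Q111SST, against 38.8% of all genes, and the median difference was -13.0 points, against -6.57 for all genes. DKI had the list with the fewest peaks. Percentile differences of the related genes were not recomputed with lists of equal size or among peaks near starts. More than 10 points lower were 3 of 9 for cyproheptadine, against 25.9% of all genes, 1 for loxapine, against 9.41%, 1 in Q7SST, against 13.0%, and 0 for meclizine, against 10.0%. None of the 9 was more than 10 points higher in any list.

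The second list held 14 genes that supply or use 2-oxoglutarate, among them those of citrate synthase, aconitase, the NAD-dependent isocitrate dehydrogenase (Idh3a, Idh3b and Idh3g) and the 2-oxoglutarate dehydrogenase complex. All 14 were marked in all 6 lists, and the median percentile lay between 83.5 in Q7SST and 87.3 with loxapine. The median difference from Q111SST was -3.08 points in Q7SST, -2.90 with meclizine, -2.65 with cyproheptadine, -1.52 with DKI and 0.93 with loxapine. Over all coding genes marked in both lists it was -1.04, -1.54, -3.74, -6.57 and -0.35 points, in that order. Of the 14, 2 were more than 10 points lower in Q7SST, against 13.0% of all genes, and 2 were lower and 1 higher with DKI, against 38.8% and 3.55%. None was past 10 points in either direction with the other 3 compounds, against 25.9% lower for cyproheptadine, 10.0% for meclizine and 9.41% for loxapine.

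The last list held 14 genes of dioxygenases that need 2-oxoglutarate, including the TET enzymes that oxidise methylated DNA, histone demethylases of the KDM4 and KDM5 families and the oxygen sensors Egln1 to Egln3. Of these, all 14 were marked in Q111SST, 13 in Q7SST and with loxapine and meclizine, and 12 with cyproheptadine and DKI. Over all coding genes the share marked ran from 55.4% with cyproheptadine to 59.9% in Q7SST. Marked in Q111SST and not with the compound were 3.33% of coding genes for cyproheptadine and 2.88% for DKI. Kdm5b, an H3K4 demethylase gene, was marked in Q111SST (score 25) and with loxapine (36) and meclizine (31), and in no other list. Egln3 was marked in the vehicle lists, with scores of 39 in Q7SST and 17 in Q111SST, and with no compound. All 5 of these peaks lay between percentiles 12.9 and 40.6 of their lists. In Q7SST 4 of the 13 genes marked there were more than 10 points higher than in Q111SST, against 8.85% of all genes, and 1 was lower, against 13.0%. For cyproheptadine and DKI 4 of 12 each were lower, against 25.9% and 38.8%. For loxapine 1 of 13 was higher, against 7.10%, and for meclizine 1 of 13 was lower, against 10.0%. The median difference over the list was -5.74 points for DKI, close to that of all genes.

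**Figure D5:**
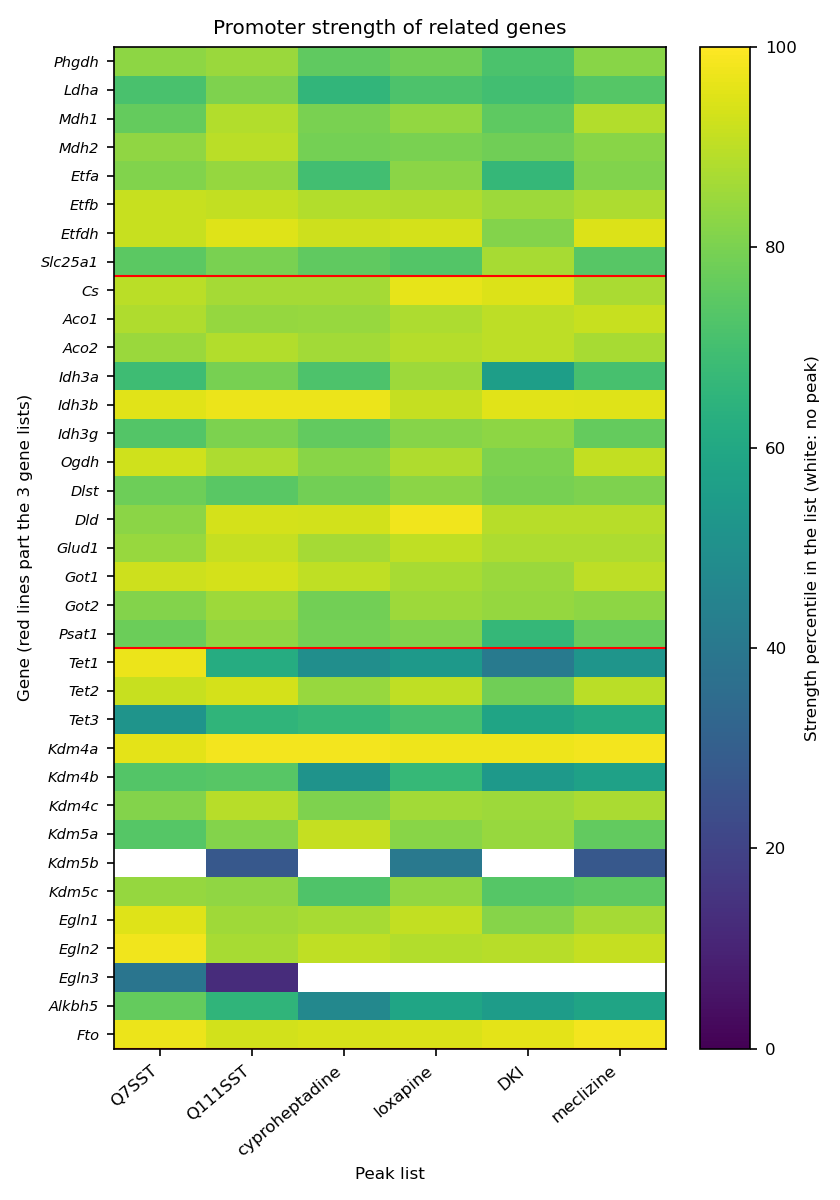
Strength percentile in each of the 6 lists (columns) of the strongest promoter peak of 35 of the 37 related genes (rows), in 3 gene lists parted by red lines, with white for no peak. Only Kdm5b and Egln3 have white cells, and the other genes shown are marked in all 6 lists.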

How the data were processed

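H3K4me3 ChIP-Seq of 6 samples gave 1 peak list per condition. Per the labels, the authors trimmed, aligned and called peaks with Trimmomatic 0.36, Bowtie2, SAMtools 1.3 and MACS2 on mm10 (GRCm38), and the deposited score of each peak is a whole number of at least 10 whose scale, threshold and input control are not given in the sources used here. No peak ran past the end of its GRCm38 chromosome. Samples were grouped by title or treatment label.

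Transcript starts were those of GENCODE M21, for protein-coding genes outside the mitochondrial genome, with genes of one symbol counted once. The strength percentile is the mid-rank of the strongest peak within 1 kb among all peaks of the list. Neighbours were coding genes with a start within 100 kb, and 5 genes nearest to a member not marked in all 6 lists were named, as were pathway genes not marked in all 6. The genes and lists were chosen with earlier results of these data known. Deposited scores were compared as percentiles within lists, since their scale between lists is unknown and read depth was not given. As a check of the code, peaks near the starts of some marked genes were taken out of a copy of the Q111SST list. These genes then had to come out unmarked by construction, so that the check says nothing on the peak calls. Alternatives were other windows, a stricter score, lists of equal size, coding transcripts alone, reciprocal overlap and merging. Python 3.11.15, numpy 2.4.6 and matplotlib 3.10.9 were used. Some genes of the lists are counted in them but not reported here by name.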

Additional observations from a re-analysis of the deposited data

How the results depend on the processing

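No paired analysis was possible because a condition had a single list, so that none could be left out of a group either. All 68 counts under the alternatives stayed within 1.5 times of their values. That limit could not flag a gain or loss of a single member, so the member counts themselves are given next. The 205 promoters with the D2hgdh pattern numbered from 145 at the stricter score to 236 within 5 kb. The number of the 4 genes marked was 3 in Q7SST and 4 in each other list with the peak lying on the start, within 5 kb, at or above the pooled median score of 47, with the strongest 30758 peaks of each list and with coding transcripts alone. Of these, only the 5 kb window could have given D2hgdh a Q7SST peak, and it gave none. Promoters marked in Q111SST and not in Q7SST numbered from 419 with lists of equal size to 602 within 5 kb. D2hgdh ranked 1 among them by score except with the peak lying on the start, where it ranked 5 of 596 and Sirt1 was first at 250. The 5 promoter peaks of these genes in Q111SST were found in the other lists alike at 1 bp and at 50% reciprocal overlap, 4 in Q7SST and 5 in each compound list.

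Strength percentiles moved for 42 of 46 alternative values, by construction, and 2 of 19 differences from Q111SST changed sign. Idh1 with loxapine went from 0.33 to -1.83 points with lists of equal size, and Adhfe1 with cyproheptadine from -3.01 to 2.12 points with lists of equal size and 1.67 among peaks near starts. Idh2 with DKI went from -22.3 to -14.9 points with lists of equal size, and Adhfe1 with DKI from -10.3 to -2.44 points, or -2.63 among peaks near starts. Other differences grew. Among peaks near starts Idh1 stood 28.6 points above Q111SST in Q7SST (11.0 before), with the downstream peak the strongest in both, and 14.6 above with lists of equal size. For DKI (8.52 before) and meclizine (4.48 before) the upstream peak, shared with Pikfyve, was set against the downstream one, and stood 24.8 and 13.5 above among peaks near starts and 12.8 and 6.44 with lists of equal size. Peak by peak, the downstream one was lower than in Q111SST (81.3 and 84.7 against 86.2) and the upstream one higher (94.7 and 90.7 against 84.9). Idh2 with loxapine went from -5.26 to -11.7 points with lists of equal size. No other of the 19 differences crossed 10 points under these 2 settings. The cause was not tested. Depth and replicate spread are unknown, which limits each comparison of lists.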

Other observations

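Among the dioxygenase genes, Tet1, which encodes an enzyme that oxidises methylated cytosine, had the widest difference between the vehicle lists. Tet1 is named after its values were seen. Its strength percentile was 97.2 in Q7SST and 61.9 in Q111SST, and 53.6 for loxapine, 52.2 for meclizine, 49.6 for cyproheptadine and 40.8 for DKI, so that Q7SST lay 35.3 points above Q111SST. The direction was opposite to that of D2hgdh. Tet3 was at 51.7 in Q7SST and 65.6 in Q111SST, and Tet2 at 91.5 and 93.5.

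Idh3a, a subunit of the NAD-dependent isocitrate dehydrogenase and also named after its values were seen, was at percentile 79.4 in Q111SST and 69.0 in Q7SST, and at 85.2 for loxapine, 72.1 for cyproheptadine, 71.0 for meclizine and 55.9 for DKI. With DKI 38.8% of all coding genes were more than 10 points lower than in Q111SST, and the median difference was -6.57 points.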
